A study of Mus musculus with 4 samples.

Results

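The genes described here are 10 controllers of the step at which a dividing cell leaves G1 and begins to copy its DNA. They are the D-type cyclins Ccnd1, Ccnd2 and Ccnd3, the E-type cyclins Ccne1 and Ccne2, the cyclin-dependent kinases Cdk2, Cdk4 and Cdk6, the transcription factor gene E2f1 and its inhibitor Rb1. They were taken by symbol from a list of names, which holds no threshold on a measured value but was drawn up with earlier results of these data known, and 10 of 10 were found among the 55414 genes in the files. RNA was sequenced from cultured neural stem cells of the mouse cortex, with 2 libraries of Mettl4 knockout cells and 2 of wild type cells. Both genotypes came from E14.5 embryos and grew first as floating spheres and then as an attached monolayer, in medium with EGF at 20 ng/ml and bFGF at 10 ng/ml. Mettl4 codes for an adenosine methyltransferase, and the series title names proliferation among its subjects. For the allele, the strain and the number of embryos behind a library, the labels give nothing. The p-values reflect how far these 4 libraries vary, and that variation may be technical.

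As background, growth factors raise the amount of D-type cyclins, which bind and activate Cdk4 and Cdk6. These kinases phosphorylate the retinoblastoma protein, the product of Rb1, which otherwise holds E2F factors inactive. Freed E2F factors switch on genes for DNA synthesis and also Ccne1, Ccne2 and E2f1 itself, and the E-type cyclins then activate Cdk2, which completes the phosphorylation. In the embryonic cortex the D-type cyclins are known for tying the length of G1 in radial glia to the choice between further division and differentiation. Gene counts measure RNA only, while much of this control acts on protein stability and phosphorylation.

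Promoter sequences of 6 of the 10 genes were matched by symbol in the RefSeq table for GRCm38.p6 (Ccnd3, Ccne1, Cdk2, Cdk4, Cdk6 and E2f1). The 250 bases before the start of Cdk4 and of Cdk6 are shown because these kinases bind the same cyclins while their levels lay at opposite ends of the 10 genes, as given below. The Cdk4 stretch is chr10:127063285-127063534 on the plus strand and the Cdk6 stretch is chr5:3343643-3343892 on the plus strand. Capitals mark CACGTG, the E-box recognised by MYC and related factors, which reads the same on both strands.
Cdk4: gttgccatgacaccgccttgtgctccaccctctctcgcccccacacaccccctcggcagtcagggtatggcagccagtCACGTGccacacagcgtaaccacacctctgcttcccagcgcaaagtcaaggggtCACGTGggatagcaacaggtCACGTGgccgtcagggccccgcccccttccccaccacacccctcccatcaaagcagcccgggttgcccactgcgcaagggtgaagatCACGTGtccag
Cdk6: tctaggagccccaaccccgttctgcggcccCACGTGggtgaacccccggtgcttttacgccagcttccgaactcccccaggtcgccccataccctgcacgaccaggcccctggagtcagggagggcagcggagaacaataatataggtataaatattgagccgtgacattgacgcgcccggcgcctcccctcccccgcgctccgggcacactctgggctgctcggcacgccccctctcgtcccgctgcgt
Cdk4 held 4 copies of CACGTG and Cdk6 held 1. Of the 32851 promoters in the table, 6.02% had at least 1 copy in these 250 bases, and 7 promoters, or 0.0213%, had 4 or more. The promoters of Ccnd3, Ccne1, Cdk2 and E2f1 had 0. The motifs given here were picked after the sequences were seen, and a match is a description of letters, not of binding. An E2F-type motif (TTGGCGC, or else the form TTCGCGC, the form TTCCCGC or the form TTGCCGC, on either strand) was in 7.89% of all promoters and, among the 6 genes, in Cdk2, with 2 matches. GGGCGG, the GC box, was on either strand in 32.7% of all promoters, with 5 matches in Cdk2, 4 each in E2f1 and Ccne1, 1 in Cdk4 and 0 in Cdk6. Ccnd3 has 2 annotated starts, with 2 matches and 1 match; matches that overlapped each other were counted separately.

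The libraries held 18150389 and 19310668 counts in the knockout, and 12812064 and 16883734 in the wild type. Mettl4 measured 15.6 and 17.6 CPM (counts normalised to the library total, with TMM scaling factors between libraries) in the knockout libraries, against 63.8 and 66.6 CPM in the wild type libraries (log2 fold change -1.97, SE 0.17), and it was the 1 gene called. The labelled cell type was visible in its markers. The 10 listed neural stem cell and radial glia genes were detected and summed to 5301 and 6347 CPM in the knockout, and to 5409 and 5919 CPM in the wild type. Fabp7 alone gave 1830 and 2985 CPM of it in the knockout, and 1635 and 2118 CPM in the wild type. Vim, Slc1a3, Pax6 and Hes1 were lower in both knockout libraries, with Vim at 1689 and 1662 CPM against 1903 and 1949 CPM. Sox9 was higher in both, at 84.16 and 81.27 CPM against 63.25 and 57.38 CPM. The other listed genes overlapped between genotypes. Markers of microglia, endothelium, mesenchyme and blood each summed to between 2.34 and 11.6 CPM per library, with the microglial gene Tmem119 at 0 in every library. Those of mesenchyme and mural cells were lower in the knockout, at 3.64 and 2.79 CPM against 9.36 and 6.28 CPM in the wild type. Markers of the oligodendrocyte lineage summed to 1463 and 1406 CPM in the knockout, and to 1420 and 1287 CPM in the wild type, and those of neurons to 1137 and 1358 CPM in the knockout, and to 1023 and 1298 CPM in the wild type. Map2 alone gave 1110 and 1335 CPM of the neuronal sum in the knockout, and 999.7 and 1266 CPM in the wild type. Those of astrocytes summed to 491 and 448 CPM in the knockout, and to 367 and 473 CPM in the wild type. Within that sum Aldh1l1 was higher in the knockout, at 247 and 198 CPM against 110 and 158 CPM. Aldoc was lower, at 127 and 142 CPM against 147 and 170 CPM. Of 5 intermediate progenitor markers 2 passed the filter, and Eomes, Neurog2 and Neurod1 did not. Their part in the results below was not tested. In bulk RNA, fewer cells of a type and less RNA per cell cannot be told apart.

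The order of RNA levels among the 10 genes differed little between libraries or genotypes. Compared per kilobase of annotated exon, Ccnd1 and Cdk4 held the top 2 places in every library, Ccnd2 the next and Ccne2 the place after that. Cdk2, E2f1 and Rb1 lay close together and changed places between libraries, Ccne1 followed, and Ccnd3 and Cdk6 were last in all 4 libraries. Ccnd1 averaged 173.6 ± 21.1 CPM per kilobase in the knockout and 190.1 ± 21 in the wild type (SD, n = 2 each). Cdk4 averaged 147.9 ± 18.7 CPM per kilobase in the knockout and 143 ± 2.55 in the wild type. Ccnd1 and Cdk4 thus overlapped in level within the knockout, where Cdk4 was ahead in replicate 2. Among 13558 tested protein-coding genes, Ccnd1 ranked between 158 and 231 and Cdk4 between 228 and 242, while Cdk6 ranked between 9444 and 10948.

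How a gene's length is defined mattered for some of these places. With the longest protein-coding transcript in place of all exons, Cdk4 averaged slightly above Ccnd1 over the 4 libraries, at 230.5 against 228.9 CPM per kilobase. Ccnd3, whose 21 annotated transcripts together cover 8775 bases of exon while its longest coding transcript has 2113, moved up past Rb1, E2f1 and Ccne1. Cdk2 and Ccne2 then exchanged places between libraries, and Cdk6 was last under both definitions. The exons come from GENCODE M21 on GRCm38, an earlier build than the GRCm39 of the counts, and were used for lengths only.

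**Figure D1:**
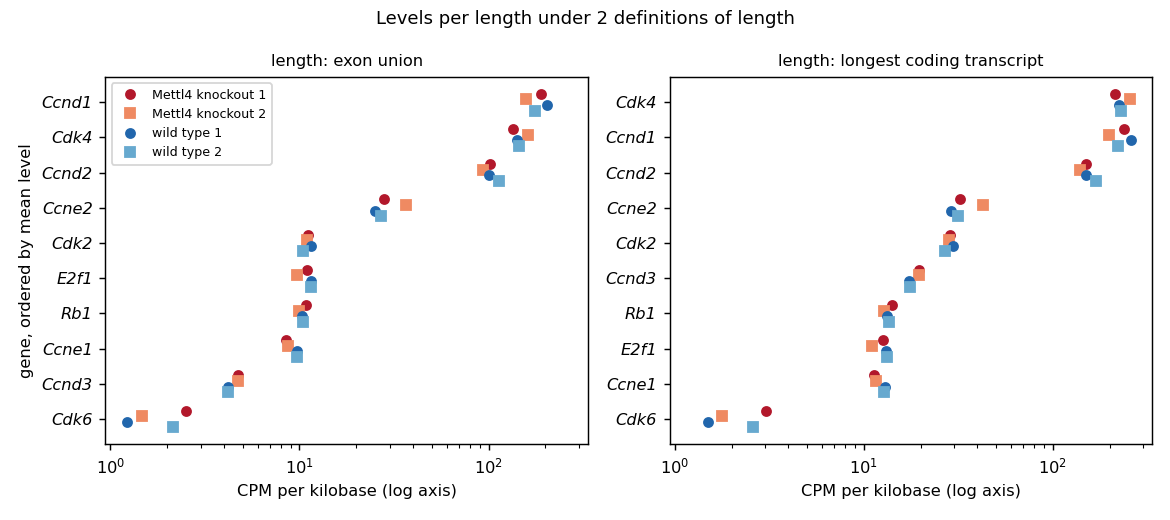
Level of each gene in each library, in CPM per kilobase on a log axis, with length taken as all annotated exons (left) or as the longest protein-coding transcript (right); points are single libraries and genes run from the highest mean level at the top. Ccnd1, Cdk4 and Ccnd2 lead and Cdk6 is last in both panels, while Ccnd3 moves with the definition of length.

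Among the D-type cyclins, RNA was split almost entirely between Ccnd1 and Ccnd2. Ccnd1 made up 64.0% and 61.8% of their summed level per kilobase in the knockout libraries, against 66.1% and 59.8% in the wild type libraries. Ccnd2, the cyclin best known for its RNA in the basal processes of radial glia, made up 34.4% and 36.4% in the knockout, against 32.6% and 38.8% in the wild type. Ccnd3 made up 1.60% and 1.83% in the knockout, against 1.35% and 1.44% in the wild type. With the longest coding transcript as length, the Ccnd3 share was 4.79% and 5.45% in the knockout and 4.09% and 4.30% in the wild type. The knockout shares of Ccnd1 and Ccnd2 lay inside the wild type range, and those of Ccnd3 lay above it.

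Ccnd1, on chromosome 7 (ENSMUSG00000070348), measured 888 and 747 CPM in the knockout libraries, against 965 and 825 CPM in the wild type libraries. The 2 groups overlapped, and replicate 1 was the higher library in each genotype. Fold changes are given as log2 of knockout over wild type, and that of Ccnd1 was -0.13 (SE 0.20, 95% interval from -0.57 to 0.31). It was -0.26 without knockout replicate 1 and -0.23 without wild type replicate 2, and -0.01 without knockout replicate 2 or without wild type replicate 1. Ccnd2, on chromosome 6 (ENSMUSG00000000184), measured 954 and 880.2 CPM in the knockout, against 951 and 1069 CPM in the wild type. These groups also overlapped, and the log2 fold change was -0.14 (SE 0.19, 95% interval from -0.57 to 0.29). It was -0.22 when wild type replicate 1 was left out, -0.08 without knockout replicate 2 and -0.04 without wild type replicate 2. The ratio of Ccnd2 to Ccnd1 per kilobase was 0.538 and 0.590 in the knockout, against 0.493 and 0.649 in the wild type, so the wild type libraries lay outside the knockout libraries on both sides.

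Ccnd3, on chromosome 17 (ENSMUSG00000034165), was the D-type cyclin whose libraries separated by genotype. It measured 41.3 and 41.3 CPM in the knockout, against 36.8 and 37.0 CPM in the wild type. Replicates lay closer together than counting error alone would place them, since Ccnd3 had between 487 and 782 counts a library and a counting error of up to 4.53%. The log2 fold change was 0.16 (SE 0.16, 95% interval from -0.19 to 0.51), and after adjustment over all genes by the method of Benjamini and Hochberg the edgeR p was 0.9999. The difference did not pass the test, whose error borrows from the spread of all genes. The annotation also holds a pseudogene, Ccnd3-ps, with which reads of Ccnd3 could be shared.

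The E-type cyclins differed in opposite directions, with Ccne1 lower and Ccne2 higher in both knockout libraries, and neither difference passed the test. Ccne1, on chromosome 7 (ENSMUSG00000002068), measured 22.7 and 23.2 CPM in the knockout, against 25.8 and 25.7 CPM in the wild type. Both knockout libraries were below both wild type libraries, with a log2 fold change of -0.17 (SE 0.18, 95% interval from -0.56 to 0.23). Ccne2, on chromosome 4 (ENSMUSG00000028212), measured 97.5 and 129 CPM in the knockout, against 87.2 and 94.8 CPM in the wild type. Both knockout libraries were above both wild type libraries, but knockout replicate 1 was only just so, and replicate 2 carried most of the difference. The log2 fold change of Ccne2 was 0.31 (SE 0.16, 95% interval from -0.05 to 0.68), with an edgeR adjusted p of 0.9999. Its unadjusted p in that edgeR model across all genes, 0.0841, was the smallest of the 10 genes. The log2 fold change was 0.10 without knockout replicate 2 and 0.50 without knockout replicate 1.

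Ccne2 was the more abundant of this pair in every library. Its level per kilobase was 3.27 and 4.22 times that of Ccne1 in the knockout, against 2.57 and 2.81 times in the wild type. On the log2 scale the ratio was higher by 0.47 in the knockout, a 1.38-fold difference, and both knockout libraries were above both wild type libraries. That separation follows from those of Ccne2 and Ccne1 given above, in opposite directions, and is not an independent finding. A ratio within a library does not depend on the scaling between libraries. In an exact two-sided permutation test over the 4 libraries the p was 0.333, the smallest that 2 against 2 can give, and 0.778 when adjusted over the 7 ratios compared, so this test cannot reach a p under 0.05 with 4 libraries. The difference was 0.28 without knockout replicate 2 and 0.65 without knockout replicate 1.

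**Figure D2:**
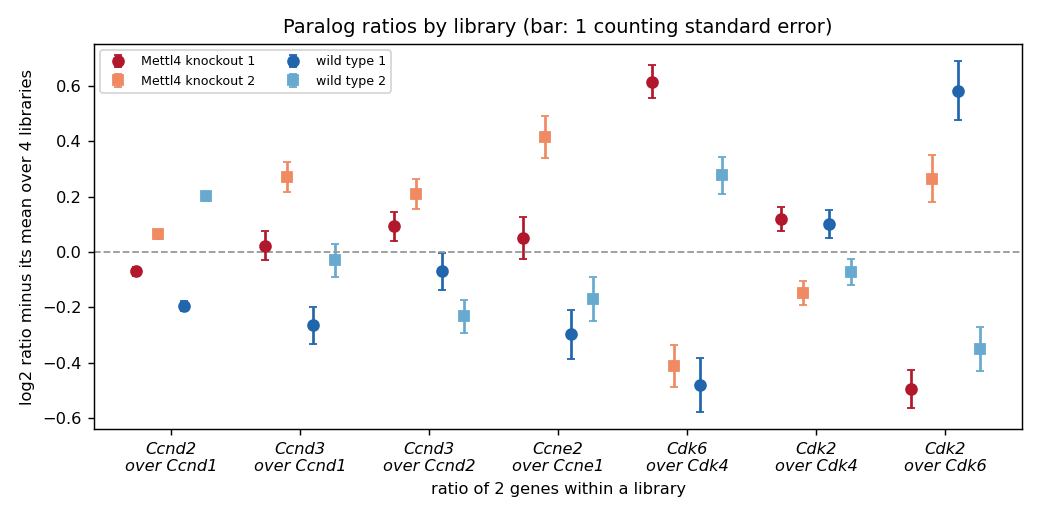
Log2 ratio of 2 genes within each library, shown as the deviation from the mean of the 4 libraries; bars are 1 standard error from read counting alone. The knockout libraries lie above the wild type libraries for Ccnd3 over Ccnd1, Ccnd3 over Ccnd2 and Ccne2 over Ccne1, while ratios with Cdk6 spread widely within each genotype.

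The ratios of Ccnd3 to its paralogs were likewise higher in both knockout libraries. Both ratios share Ccnd3, whose own libraries separated by genotype, so they are not independent findings. Ccnd3 over Ccnd1 differed by 0.30 on the log2 scale between knockout and wild type, and Ccnd3 over Ccnd2 by 0.30. Ccnd3 over Ccnd1 differed by 0.17 without knockout replicate 2 and 0.18 without wild type replicate 1, against 0.42 without knockout replicate 1 and 0.41 without wild type replicate 2. Ccnd3 over Ccnd2 lay between 0.22 and 0.38 when any 1 library was left out. Each had the same exact permutation p of 0.333 (two-sided) and adjusted p of 0.778. Full separation of 2 against 2 libraries has by itself an exact permutation p of 0.333. Several ratios also share a gene, so the number that separated is not read as a result about the paralogs. The remaining 4 of the 7 ratios overlapped between genotypes. They were Ccnd2 over Ccnd1 at -0.01, Cdk6 over Cdk4 at 0.20, Cdk2 over Cdk4 at -0.03 and Cdk2 over Cdk6 at -0.23, with exact p-values of 1.00, 0.667, 1.00 and 0.667.

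Cdk4 supplied nearly all RNA for the kinases that partner D-type cyclins. Of the summed level of Cdk4 and Cdk6 per kilobase, Cdk4 made up 98.2% and 99.1% in the knockout, against 99.1% and 98.6% in the wild type. Cdk4, on chromosome 10 (ENSMUSG00000006728), measured 438 and 524 CPM in the knockout, against 460.1 and 472 CPM in the wild type. The wild type libraries lay between the knockout libraries, at a log2 fold change of 0.05 (SE 0.18, 95% interval from -0.34 to 0.43). Cdk2, the partner of the E-type cyclins, is also on chromosome 10 (ENSMUSG00000025358). It measured 68.8 and 68.3 CPM in the knockout, against 71.4 and 64.8 CPM in the wild type. Here the knockout libraries lay between the wild type libraries, at a log2 fold change of 0.01 (SE 0.14, 95% interval from -0.31 to 0.32). Its level per kilobase was 0.0821 and 0.0681 times that of Cdk4 in the knockout, against 0.0811 and 0.0718 times in the wild type.

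Cdk6 was the most variable of the 10 genes between libraries of the same genotype. On chromosome 5 (ENSMUSG00000040274), it measured 34.98 and 20.5 CPM in the knockout, against 17.2 and 29.8 CPM in the wild type. Knockout replicate 1 and wild type replicate 2 were high, and the other library of each genotype was low. Its counts ran from 228 to 663, a counting error of at most 6.62%, so the spread within each genotype was larger than read counting gives. Its log2 fold change was 0.24 (SE 0.31, 95% interval from -0.46 to 0.93), the widest interval of the 10 genes. The sign turned without knockout replicate 1, to -0.20, and without wild type replicate 1, to -0.10. Cdk6 also has the longest coding transcript of the 10 genes, at 11525 bases. Coding genes at 20 CPM or more were grouped by this length, and medians of log2 deviations from their own mean were taken. The 263 genes of 10 kb and over had medians of 0.07 and -0.07 in the knockout, and of 0.00 and -0.02 in the wild type. For the 1476 genes under 2 kb they were -0.13 and 0.13 in the knockout, and -0.05 and 0.05 in the wild type. Cdk6 deviated by 0.51 and -0.26 in the knockout, and by -0.52 and 0.28 in the wild type. The part of transcript length in the Cdk6 values was not tested.

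Rb1 and E2f1, whose products act downstream of the D-type cyclin kinases, gave small differences. Rb1, on chromosome 14 (ENSMUSG00000022105), measured 65.4 and 59.7 CPM in the knockout, against 62.0 and 63.0 CPM in the wild type. The wild type libraries lay between the knockout libraries, and the log2 fold change was -0.00 (SE 0.14, 95% interval from -0.32 to 0.32). E2f1, on chromosome 2 (ENSMUSG00000027490), measured 34.7 and 30.6 CPM in the knockout, against 36.3 and 36.5 CPM in the wild type. Both knockout libraries were below both wild type libraries under the TMM and the DESeq2-type scaling, but they overlapped when library totals alone were used. The log2 fold change of E2f1 was -0.15 (SE 0.17, 95% interval from -0.53 to 0.22), -0.25 without knockout replicate 1 and -0.07 without knockout replicate 2.

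**Figure D3:**
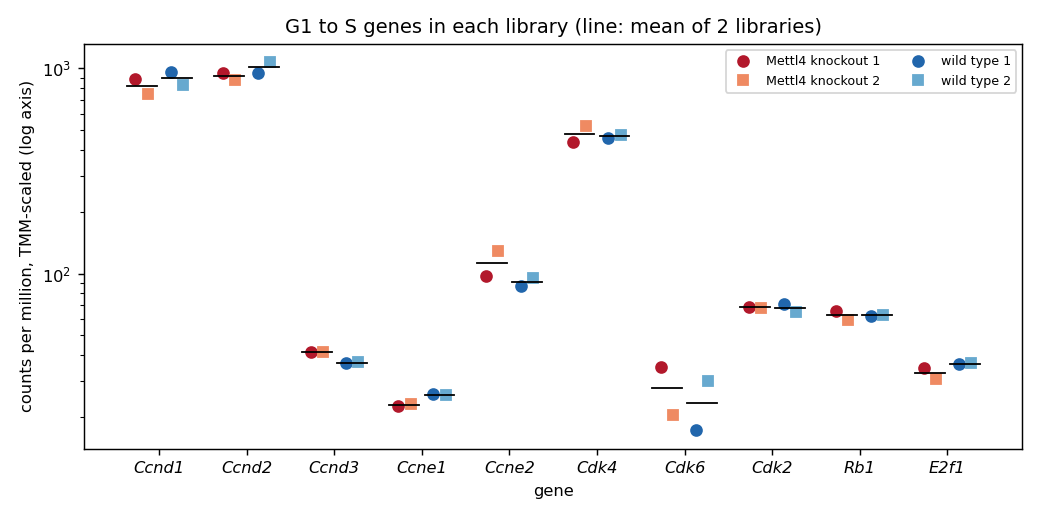
Level of the 10 genes in each library, in CPM scaled by TMM factors on a log axis; lines are means of 2 libraries, with Mettl4 knockout left of wild type. Ccnd3 and Ccne2 are higher and Ccne1 and E2f1 lower in both knockout libraries, and Cdk6 spreads widely in each genotype.

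Counted together, 0 of the 10 genes were called at an adjusted p under 0.05 in the edgeR quasi-likelihood test, where 0.00502% of the 19912 genes tested were called. At an unadjusted p under 0.05 there were also 0 of the 10, against 2.77% of all genes. DESeq2 and limma-voom each called 0, with 0 at an unadjusted p under 0.05. Unadjusted edgeR p-values under 0.05 did occur when a library was left out, for Ccne2 without knockout replicate 1 (0.00941) and for Cdk6 without wild type replicate 2 (0.0161), and neither passed adjustment. All 10 passed the low-count filter, with between 228 and 18075 counts a library. Of the log2 fold changes, 5 lay above 0 and 5 below, and their median was 0.00, while 49.7% of all tested genes were positive and their median was -0.00. Both knockout libraries were above both wild type libraries for 2 of the 10 genes, against 12.5% of all genes, and below them for 2, against 14.9%. The groups were thus free of overlap for 4 of the 10 genes, against 27.4% of all genes.

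The 95% intervals differed in width between genes. They were narrowest for Cdk2, from 0.809 to 1.25 times the wild type level, and for Rb1, from 0.802 to 1.25 times. Ccnd1 ran from 0.673 to 1.24 times, Ccne2 from 0.966 to 1.60 times and Cdk6, the widest, from 0.726 to 1.91 times. The lack of a call does not show equal levels.

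**Figure D4:**
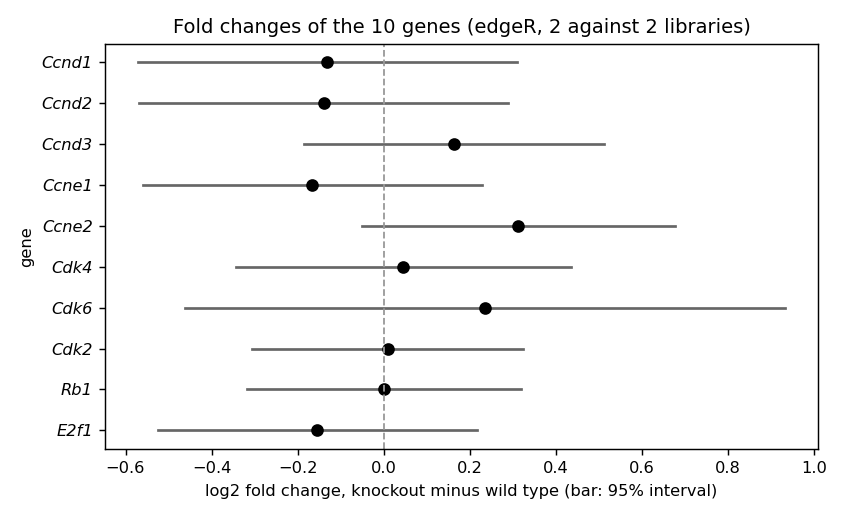
Log2 fold change of each gene, knockout minus wild type, with its 95% interval from the edgeR fit on 2 knockout and 2 wild type libraries. Every interval spans 0, Ccne2 lies farthest from 0 at 0.31 and Cdk6 has the widest interval.

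Reads of several of these genes may be shared with a neighbour on the opposite strand, since the labels do not describe a kit that keeps strand. Exons of Ccnd1 overlapped those of LTO1 over 23.4% of their length, those of Cdk4 overlapped Tspan31 over 19.7%, and those of Ccne2 overlapped Ints8 over 17.4%. For Ccne2 the groups of the neighbour overlapped, as Ints8 measured 102 and 114 CPM in the knockout, against 101 and 112 CPM in the wild type, with replicate 2 the higher library in each genotype, as for Ccne2. LTO1 measured 179 and 158 CPM in the knockout, against 209 and 176 CPM in the wild type, with replicate 1 the higher library in each genotype, like Ccnd1. Ccne1 and E2f1 had 0 overlapping genes.

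The CDK inhibitors, which oppose the kinases, had 7 listed genes, and 0 were called by edgeR (0 at an unadjusted p under 0.05), with 3 positive, 4 negative and a median of -0.08. The median was -0.01 without knockout replicate 1, -0.04 without knockout replicate 2 and -0.01 without wild type replicate 2. Cdkn1b, which encodes p27 and restrains cyclin E complexes, measured 108 and 123 CPM in the knockout, against 92.1 and 101 CPM in the wild type (log2 fold change 0.26, SE 0.14). Cdkn2a, which encodes p16 and p19ARF, measured 11.2 and 11.8 CPM in the knockout, against 15.4 and 15.1 CPM in the wild type (-0.40, SE 0.21). The groups did not overlap for either gene, against 27.4% of all genes tested without overlap. Both were named for their small p, a choice that favours such separation. Cdkn1c, which encodes p57, measured 5.07 and 9.52 CPM in the knockout, against 5.06 and 5.37 CPM in the wild type, so knockout replicate 2 stood alone.

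Of 15 tested genes among Rb1-related pocket proteins, other E2F factors and their partners, 0 were called by edgeR (0 at an unadjusted p under 0.05), with 6 positive, 9 negative and a median of -0.02. Without knockout replicate 2 there were 10 positive and 5 negative (median 0.06), and without knockout replicate 1 there were 3 and 12 (median -0.12). Tfdp2, a partner subunit of E2F factors, measured 89.5 and 86.2 CPM in the knockout, against 99.7 and 107 CPM in the wild type (log2 fold change -0.24, SE 0.14). E2f6, a repressor of the family, was at -0.18 (SE 0.14), and E2f5, which works with the pocket proteins in resting cells, at 0.20 (SE 0.16). Of 16 genes of kinase activation and cyclin turnover, 0 were called (0 at an unadjusted p under 0.05), with 8 positive, 8 negative and a median of 0.02, or 12 positive and 4 negative without wild type replicate 1. The named members were Cul1, the scaffold of the ligase that degrades cyclin E, at 0.17 (SE 0.16; 0.01 without knockout replicate 2), Fbxw7, which recognises cyclin E for that ligase, at -0.16 (SE 0.15; -0.01 without wild type replicate 2), and Gsk3b, a kinase that marks cyclin D1 for export and degradation, at 0.13 (SE 0.15).

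Genes that E2F factors switch on at the start of DNA synthesis differed by small amounts. Of 24 tested, 0 were called by edgeR (0 at an unadjusted p under 0.05), and 22 log2 fold changes lay above 0 and 2 below, with a median of 0.05. Among all tested genes 49.7% were positive. The positive count of the list fell most without knockout replicate 2, to 10 above 0 and 14 below (median -0.02). It was 16 above and 8 below without wild type replicate 1, and the same without wild type replicate 2. Without knockout replicate 1, or with library totals in place of TMM factors, 19 were positive and 5 negative. Rrm2, the nucleotide reductase subunit made for S phase, went the other way, at 322 and 252 CPM in the knockout, against 334 and 340.1 CPM in the wild type (-0.23, SE 0.17; -0.06 without knockout replicate 2 and -0.42 without knockout replicate 1). Mcm5, a subunit of the replicative helicase, measured 155 and 160.0 CPM in the knockout, against 144 and 138 CPM in the wild type (0.16, SE 0.14).

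Among 26 tested of 27 listed genes for other cyclins and cyclin-dependent kinases, 0 were called by edgeR (0 at an unadjusted p under 0.05), with 18 positive, 8 negative and a median of 0.04. Without knockout replicate 1 there were 14 positive and 12 negative (median 0.01), without knockout replicate 2 the median was 0.07, and without wild type replicate 1 it was 0.05. Ccng2, an atypical cyclin associated with cell cycle exit, measured 34.8 and 53.1 CPM in the knockout, against 30.1 and 35.1 CPM in the wild type (log2 fold change 0.43, SE 0.21). Its groups overlapped, and knockout replicate 2 stood apart: the log2 fold change was 0.09 without that library and 0.70 without knockout replicate 1. Cdk10 was at -0.33 (SE 0.22) and Ccnc, the cyclin of the Mediator kinase, at 0.18 (SE 0.14).

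Growth factor receptors, ERK pathway genes and MYC family genes, which act on D-type cyclin transcription, had 15 tested members. Of these 0 were called by edgeR, 1 had an unadjusted p under 0.05, and 6 values lay above 0 and 9 below it (median -0.05). Without knockout replicate 2 this became 10 above and 5 below (median 0.13), and without knockout replicate 1 it became 4 and 11 (median -0.19). The member with the small p was Dusp6, a phosphatase that switches off ERK and is itself induced by it. It measured 129 and 93.2 CPM in the knockout, against 202 and 152 CPM in the wild type (log2 fold change -0.67, SE 0.20; edgeR adjusted p = 0.9999, unadjusted 0.00651). It passed the adjusted threshold with the replicate number as a block (-0.67, edgeR adjusted p = 0.0239). It also passed when knockout replicate 1 was left out (-0.92, edgeR adjusted p = 0.037), while without knockout replicate 2 or wild type replicate 1 it was at -0.45, and over its alternatives the adjusted p ran between 0.0239 and 1.00. Dusp6 and Ccnd1 were both higher in replicate 1 than in replicate 2 of each genotype. Fgfr1, Etv4, Etv5, Egr1, Jun, Fosl1, Myc and Mycn of this list had the same order. Etv1, Fgfr2, Fgfr3, Egfr, Fos and Spry2 did not. The share of all genes with this order was not counted. Same-numbered libraries deviated together with a correlation of 0.23 across all genes tested, and a link between Dusp6 and Ccnd1 was not tested. Etv1, an ETS factor, was at 0.19 (SE 0.15) and Fgfr3 at -0.22 (SE 0.21). The ERK pathway genes of the list other than Dusp6 lay between -0.21 for Fos and 0.35 for Fosl1. Spry2 was at -0.12 (SE 0.14), Etv4 at -0.01 (SE 0.17) and Etv5 at 0.01 (SE 0.21). These genes, and Myc and Mycn, which encode factors that bind E-boxes, were chosen for description after their values were seen. Myc measured 33.1 and 25.5 CPM in the knockout, against 30.9 and 24.3 CPM in the wild type, and the groups overlapped. Mycn measured 2.85 and 2.79 CPM in the knockout, against 3.17 and 1.71 CPM in the wild type, and these overlapped too.

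**Figure D5:**
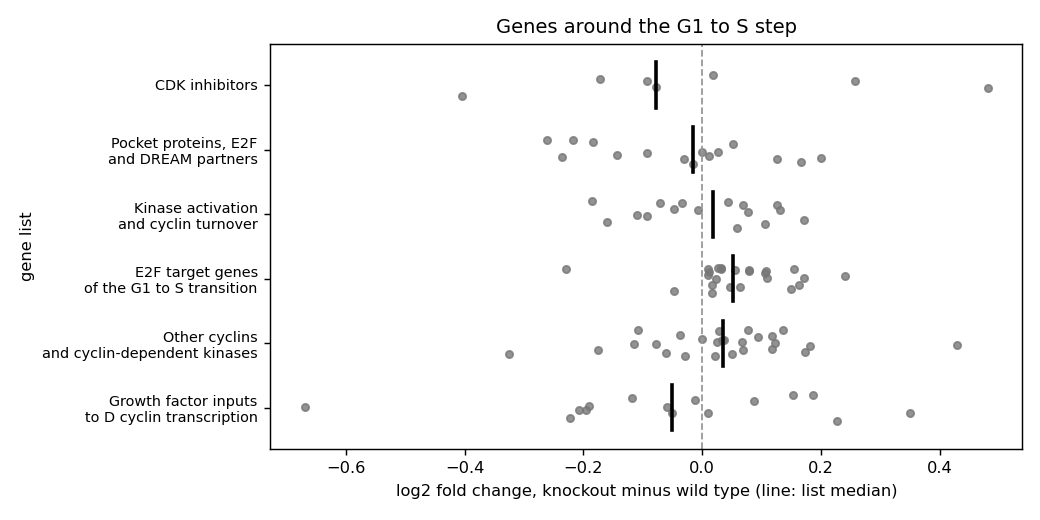
Log2 fold change, knockout minus wild type, of each tested gene in 6 lists around the G1 to S step; dots are genes, spread vertically for visibility, and lines are list medians. Medians lie between -0.08 and 0.05, and Dusp6 at -0.67 is the farthest from 0.

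The genes whose pattern over the 4 libraries was most like that of Ccne2, the member with the smallest p, were Zfp131, Zmym2 and Ostc. Likeness was the distance between log2 CPM deviations from each gene's own mean, over 4 libraries and 7576 candidate coding genes, and it was 0.05, 0.06 and 0.06 for these. Zfp131 measured 87.9 and 111 CPM in the knockout, against 77.5 and 85.7 CPM in the wild type. Over 4 libraries of 2 genotypes this likeness is a description only.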

How the data were processed

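The authors deposited whole-number read counts per Ensembl gene, not normalised, in 1 file per library. Alignment with STAR 2.7.10 to GRCm39 and counting with featureCounts are named per the submitters' processing notes. How strand and multiple matches were treated was not given in the sources used here. Identifiers without version were matched to symbols with a GENCODE M21 table (52081 of 55414 matched; Skp1 was found under an older symbol, and Lin54 is not analysed here).

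Genes passing edgeR's filterByExpr (minimum count 10; 19912 genes) were scaled with TMM factors and tested, knockout minus wild type, with edgeR 4.0.16 in R 4.3.3 (quasi-likelihood F test, robust=TRUE), with Benjamini-Hochberg adjustment over all genes tested and a threshold of 0.05. A standard error is the size of a log2 fold change divided by the square root of its F, and intervals are 95%. The median standard error over all genes was 0.25 on the log2 scale. Levels between genes are CPM per kilobase of annotated exon, and ratios within libraries were compared with exact permutation tests (SciPy 1.17.1). Replicates were not repeats of a single library: chi-square per degree of freedom was 29.4 in the knockout pair and 17.8 in the wild type pair.

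Named are Mettl4, the 10 genes, the 3 genes with the smallest p of each of 6 lists (1 such gene is not reported here), and the 3 genes most like the member with the smallest p at 20 CPM or more. Some further genes of the growth factor list were named after their values were seen. The members and lists were chosen with earlier results of these data known. Alternatives were other scalings, filters and tests (DESeq2 1.42.0, limma-voom from limma 3.58.1), a replicate block, leaving out each library, another length and 0.5 count added.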

Additional observations from a re-analysis of the deposited data

How the results depend on the processing

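None of the 10 genes was called under any of the 12 alternative fits. Their fold changes kept their sign in 110 of 120 values. Those that turned were Cdk2 with library totals only (-0.0036) and without wild type replicate 2, Cdk4 and Rb1 without knockout replicate 2, Rb1 also without wild type replicate 2, with DESeq2 (0.0151), DESeq2-type factors (0.0108) and no low-count filter (0.0095), and Cdk6 as given above. Ranges over the 4 fits without a library were -0.0474 to 0.0804 for Cdk2, -0.0893 to 0.1687 for Cdk4, -0.2008 to 0.6991 for Cdk6 and -0.0683 to 0.0657 for Rb1. Cdkn1c and Fgfr3 turned without knockout replicate 2, and their ranges were -0.0415 to 0.8675 and -0.541 to 0.0388.

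The count of genes called over the whole table was 1, and 9 with DESeq2, 41 with no low-count filter, 47 without knockout replicate 1, 1 without knockout replicate 2, 31 without wild type replicate 1 and 17 without wild type replicate 2; in these fits the lone library of a genotype is assumed to vary like the other genotype. With the replicate number as a block it was 9, Dusp6 among them, and Ccne2 had a log2 fold change of 0.30 (edgeR adjusted p = 0.458, unadjusted 0.00938). No label marks pairs, and same-numbered libraries deviated together with a correlation of 0.23 across genes. The block cannot move a paralog difference, since each number occurs once in each genotype.

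Without a library, the knockout minus wild type difference ran from -0.2042 to 0.1908 for Ccnd2 over Ccnd1, -0.3111 to 0.717 for Cdk6 over Cdk4, -0.163 to 0.1052 for Cdk2 over Cdk4 and -0.6981 to 0.2345 for Cdk2 over Cdk6. With the longest coding transcript as length, log2 levels moved in the knockout and the wild type to -3.48 and -3.77 for Ccnd3 over Ccnd1, -2.89 and -3.19 for Ccnd3 over Ccnd2, -3.03 and -3.00 for Cdk2 over Cdk4 and 3.61 and 3.85 for Cdk2 over Cdk6, -0.59 and -0.58 for Ccnd2 over Ccnd1, and 1.70 and 1.23 for Ccne2 over Ccne1. The length shifts both genotypes of a ratio by the same amount.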
